A study of Rattus norvegicus with 9 samples.

Results

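The Nr4a nuclear receptor genes and the classical immediate early genes (Nr4a1, Nr4a2, Nr4a3, Fos, Fosb, Jun, Junb, Egr1, Ier2 and Ier3) were followed in the liver of irradiated rats. These 10 genes were chosen by name, with the TBI change of Nr4a1 already known, and each was measured by the probes whose RefSeq accession belongs to it. Of the 10 genes, 8 had such a probe, with 1 probe each, among the 13438 genes that could be named. The probes of 7 were bright enough to be tested, among 9601 tested genes, and those 7 were above background on all 9 arrays. The array signals of Fosb and Egr1 were not analysed here.

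Liver RNA came from 9 male Wistar rats in 3 groups of 3 rats, with 1 array per rat. Control rats were not irradiated. TBI rats received total-body irradiation with 6.5 Gy from a cobalt source at 2 Gy/min. HSC + TBI rats received Hong Shan Capsule (HSC), a crude herbal drug, by stomach tube on 3 consecutive days and then the same irradiation. The HSC dose is 10 g/kg/day in the description of the series and 30 mg/kg/day in the sample labels. The livers were collected 24 h after exposure. The arrays hold no rats given HSC without irradiation, so the effect of HSC could be read only in irradiated liver. A probe was called changed at a Benjamini-Hochberg adjusted p under 0.05 over all tested probes, from limma's moderated test, together with a fold change of at least 1.5. The 3 comparisons share arrays, so their values are given side by side.

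Immediate early genes are transcribed within minutes of a stimulus without the need for new protein, and their mRNAs are short-lived. The NR4A proteins are nuclear receptors with no classical ligand, so that their activity largely follows how much of them is made. In hepatocytes they are known to be induced by glucagon through cAMP and to raise genes of glucose production. Jun and Fos proteins pair to form the AP-1 transcription factor, which answers growth factors, stress kinases and DNA damage. The cAMP response element (CRE), bound by CREB family factors, and the CArG box, bound by serum response factor, are the promoter words best known for switching this class of genes on.

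The promoter sequences are shown because the genes that moved together could be compared for these words. They are the 250 bases before the annotated start of the gene, from RefSeq (assembly GRCr8), and 6 of the 10 genes had an entry. Whether transcription in liver begins at these annotated starts was not tested, so a word absent from a window could lie outside it. Capitals mark matches on either strand to the CRE (TGACGTCA), its shorter core (TGACG), the related word TGCGTCA, the AP-1 word (TGANTCA), the TATA box (TATAAA) and the CArG box. The sequences are those of Nr4a1, of Btg2, whose array profile was nearest to it, of Nr4a2, which also rose after TBI, and of Junb and Ier2, which were not called.
Nr4a1, chr7:134259888-134260137, plus strand: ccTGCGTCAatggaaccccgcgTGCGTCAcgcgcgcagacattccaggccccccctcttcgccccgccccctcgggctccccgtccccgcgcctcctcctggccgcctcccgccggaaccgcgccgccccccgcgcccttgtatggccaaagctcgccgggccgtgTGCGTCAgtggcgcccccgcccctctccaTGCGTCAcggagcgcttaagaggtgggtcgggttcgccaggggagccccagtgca
Btg2, chr13:48087691-48087940, minus strand: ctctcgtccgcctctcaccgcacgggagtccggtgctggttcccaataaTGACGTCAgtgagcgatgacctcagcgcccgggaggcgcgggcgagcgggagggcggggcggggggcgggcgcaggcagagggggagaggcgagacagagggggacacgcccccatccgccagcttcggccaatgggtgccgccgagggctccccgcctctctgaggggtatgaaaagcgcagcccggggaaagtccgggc
Nr4a2, chr3:62104888-62105137, minus strand: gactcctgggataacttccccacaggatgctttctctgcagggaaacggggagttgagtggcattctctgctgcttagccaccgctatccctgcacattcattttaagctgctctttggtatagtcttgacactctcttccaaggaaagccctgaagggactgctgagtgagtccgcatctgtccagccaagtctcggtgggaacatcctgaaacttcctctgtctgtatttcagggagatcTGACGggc
Junb, chr19:40080876-40081125, plus strand: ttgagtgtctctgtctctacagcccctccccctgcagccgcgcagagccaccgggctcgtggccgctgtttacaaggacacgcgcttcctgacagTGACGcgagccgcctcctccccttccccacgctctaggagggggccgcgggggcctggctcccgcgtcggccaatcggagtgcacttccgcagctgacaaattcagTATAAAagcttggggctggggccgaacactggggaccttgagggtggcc
Ier2, chr19:40399123-40399372, plus strand: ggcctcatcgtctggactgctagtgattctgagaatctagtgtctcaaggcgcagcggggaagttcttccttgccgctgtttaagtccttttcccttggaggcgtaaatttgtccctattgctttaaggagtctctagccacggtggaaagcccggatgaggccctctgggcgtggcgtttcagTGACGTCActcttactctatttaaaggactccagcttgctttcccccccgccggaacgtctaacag

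Nr4a1 held TGCGTCA 4 times, starting at -248, -228, -84 and -55 from the annotated start. Each of these words includes the shorter core of the CRE, read on the other strand. Among 33469 rat promoter windows of the same span (250 bases before to 50 bases after the start), 1.9% held TGCGTCA at least once. Only 1 window, that of Nr4a1, held it 4 or more times. The word was singled out after the Nr4a1 sequence had been read, so this count is a description. Nr4a2 held the shorter core once, at -8, and Junb held it once, at -155, with a TATA box at -49, and the window of Fosb held a TATA box at -180. The shorter core was present in 21.2% of all windows and the TATA box in 14.2%. Ier2 held 1 full CRE at -66 and Btg2 held 1 at -201, a word found in 1.83% of all windows, and each full CRE contains the shorter core on both strands. The window of Egr1 held 2 CArG boxes, at -105 and -83, against 1.64% of all windows with any. The EGR word (GCGNGGGCG), in 4.98% of all windows, was found in Nr4a1 at -73 and in Btg2 at -166. The AP-1 word, in 7.33% of all windows, and the NR4A monomer word (AAAGGTCA), in 1.43%, were in none of the windows of the 6 genes. Nr4a1, which rose after TBI, and Ier2, which was not called, thus both held words of the CRE family.

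**Figure D1:**
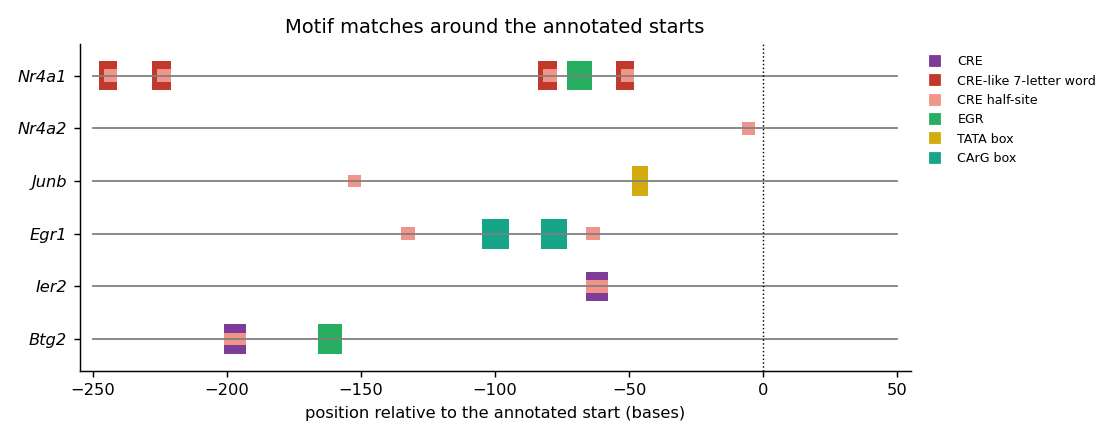
Positions of motif matches, in bases relative to the annotated start (dotted line), in the promoter windows of 5 of the 6 genes with an entry and of Btg2; coloured boxes are the motifs named in the key, and the narrow boxes are the shorter CRE core. The CRE-like word of 7 letters occurred 4 times in Nr4a1, while the full CRE was in Ier2 and Btg2 and the CArG boxes were in Egr1.

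After TBI the 3 genes that rose were Nr4a1, Nr4a2 and Jun, and none of the 7 tested genes fell. That is 3 of 7 called higher, beside 3.54% of all 25367 tested probes called higher, 3.71% lower and 7.25% in either direction, and 4 of the 7 had an unadjusted p under 0.05, as had 25.5% of all probes. The call of Nr4a1 was known when the genes were chosen. Of the 6 tested genes other than Nr4a1, 2 were called higher and 3 had an unadjusted p under 0.05. The count of 3 fell to 1 without control replicate 3. The 7 genes had a median log2 fold change of 0.88, against -0.01 over all tested probes. After HSC + TBI, 0 of the 7 were called against the controls by limma, where 3.23% of all probes were called (1.19% higher, 2.05% lower), and 3 had an unadjusted p under 0.05, as had 19.6% of all probes. Between HSC + TBI and TBI, 0 of the 7 were called, where 0.796% of all probes were called (0.233% higher, 0.564% lower), and 1 had an unadjusted p under 0.05, as had 16.3% of all probes.

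Nr4a1 (gene ID 79240), the receptor also known as Nur77, had log2 signals of 7.30, 9.30 and 7.92 in the 3 controls. They were 11.08, 12.57 and 12.35 after TBI and 11.80, 9.72 and 10.18 after HSC + TBI. Every irradiated rat, with or without HSC, lay above every control, and HSC + TBI replicate 1 lay among the TBI rats while the other two HSC + TBI rats lay below all of them. The mean log2 signal was 8.17 ± 1.03 in controls, 12.00 ± 0.80 after TBI and 10.57 ± 1.09 after HSC + TBI (SD, n = 3 each). The rise after TBI was 3.82 on the log2 scale (SE 0.68), a 14.2-fold difference. It passed the threshold and is given without a p because it was known when the genes were chosen. The call was lost without control replicate 3, where the rise was 3.70. After HSC + TBI the log2 fold change against controls was 2.39 (SE 0.68; adjusted p = 0.0980), which did not pass. Against the TBI rats the difference was -1.43 (95% interval -2.97 to 0.11, adjusted p = 0.342), so that neither no difference nor a fall of several fold lay outside the interval.

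Nr4a2 (54278), also known as Nurr1, had the tightest controls of the receptors, with log2 signals of 6.14, 6.54 and 6.08. The TBI rats were at 8.30, 9.13 and 9.14 and the HSC + TBI rats at 8.50, 7.01 and 7.61. As with Nr4a1, all 6 irradiated rats lay above all controls, and HSC + TBI replicate 1 was the only HSC + TBI rat within the range of the TBI rats. Nr4a2 rose after TBI by 2.60 on the log2 scale (SE 0.38, 6.08-fold, adjusted p = 0.00610), and the call held with each of the 9 rats left out in turn, at values from 2.46 to 2.88. With a background correction by normexp the log2 rise was 1.5, and it was still called. After HSC + TBI the log2 fold change against controls was 1.46 (SE 0.38, adjusted p = 0.0775). Against TBI it was -1.15 (95% interval -2.0 to -0.29), with an unadjusted p of 0.0145 and an adjusted p of 0.191, so the difference between the irradiated groups did not pass over all probes.

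Nr4a3 (58853), the remaining member of the receptor family, was well above background on 2 of the 9 arrays, those of TBI replicates 2 and 3, at log2 signals of 8.35 and 7.45. TBI replicate 1 was at 1.74, the controls at 3.59, 3.48 and 3.01, and the HSC + TBI rats at 3.52, 2.09 and 1.42, none of them well above background. The probe was therefore not tested, and the values below background have no order. To gauge the size, each control or HSC + TBI array was set to no less than its lowest signal above background. All 3 TBI rats, replicate 1 included, entered at their measured values. On that footing the TBI mean was 3.99-fold higher than the control mean and 4.67-fold higher than the HSC + TBI mean. These are not strict lower bounds, since TBI replicate 1 was itself not well above background. Both values rested on single TBI rats. The value against controls was 1.68-fold without TBI replicate 2 and 16.5-fold without TBI replicate 1, and that against HSC + TBI was 1.96-fold and 19.4-fold. TBI replicate 1 shared in neither difference. TBI replicates 2 and 3 were also the 2 highest rats of all 9 for Nr4a1 and for Nr4a2.

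Jun (24516), the core subunit of AP-1, had log2 signals of 9.88, 12.13 and 11.25 in controls, 12.59, 13.83 and 13.66 after TBI, and 13.11, 12.21 and 12.45 after HSC + TBI. All irradiated rats lay above all controls, but HSC + TBI replicate 2 did so by a small margin over control replicate 2. The rise after TBI was 2.28 on the log2 scale (SE 0.56, 4.84-fold, adjusted p = 0.0434). The call rested on the full set of rats: it was lost without any 1 of 7 rats and kept without control replicate 2 or TBI replicate 1, with values from 1.67 to 2.80 that stayed positive throughout. After HSC + TBI the log2 fold change was 1.51 against controls (SE 0.56, adjusted p = 0.186), and 0.90 without control replicate 1. Against TBI it was -0.77 (95% interval -2.04 to 0.51, adjusted p = 0.540).

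For Nr4a1, Nr4a2 and Jun, then, the irradiated rats did not overlap with the controls, after TBI and after HSC + TBI alike. Groups that did not overlap, with the irradiated rats higher, were seen in 13.3% of all tested probes after TBI and in 18.0% after HSC + TBI.

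**Figure D2:**
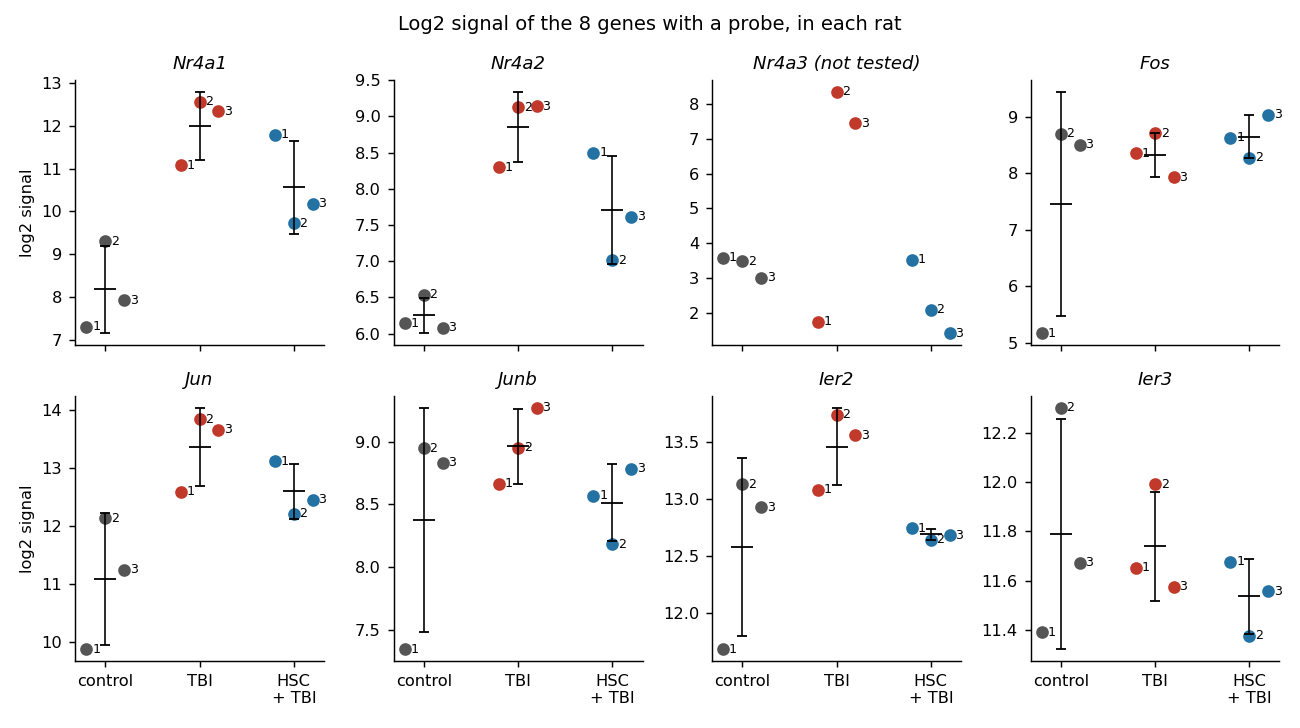
Log2 signal (vertical axis, on a separate scale in each panel) of the 8 genes with a probe in each rat; points are rats, with the replicate number beside them, and bars are the group mean and SD (not drawn for Nr4a3, which was below background on 7 arrays). Every irradiated rat exceeded every control for Nr4a1, Nr4a2 and Jun, while control 1 stood below the other two controls for Fos, Jun, Junb and Ier2.

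Fos (314322), the partner of Jun in AP-1, was not called in any comparison. Its log2 signals were 5.16, 8.70 and 8.51 in controls, 8.35, 8.71 and 7.93 after TBI, and 8.63, 8.28 and 9.04 after HSC + TBI. Control replicate 1 stood alone, and the other 8 rats lay between 7.93 and 9.04 whatever their treatment. The log2 fold change after TBI was 0.87 (SE 0.82, adjusted p = 0.542) and turned to -0.27 without control replicate 1. After HSC + TBI it was 1.19 against controls (SE 0.82, adjusted p = 0.471) and 0.05 without that rat. Against TBI it was 0.32 (95% interval -1.55 to 2.18, adjusted p = 0.877).

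Junb (24517), a Jun relative that can restrain the activity of Jun, was not called either. Its log2 signals were 7.34, 8.95 and 8.83 in controls, 8.66, 8.95 and 9.27 after TBI, and 8.57, 8.18 and 8.79 after HSC + TBI. The groups overlapped, again with control replicate 1 the lowest rat. The log2 fold changes were 0.59 after TBI (SE 0.40, adjusted p = 0.397), 0.14 after HSC + TBI (adjusted p = 0.887) and -0.45 between the irradiated groups (95% interval -1.36 to 0.47, adjusted p = 0.618). Without control replicate 1 the value after TBI was 0.07.

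Ier2 (494344), a nuclear protein of the immediate early response, had log2 signals of 11.68, 13.13 and 12.93 in controls, 13.08, 13.74 and 13.55 after TBI, and 12.74, 12.64 and 12.68 after HSC + TBI. The TBI rats overlapped with control replicate 2 alone, and all 3 HSC + TBI rats lay below all 3 TBI rats. Its log2 fold change after TBI was 0.88 (SE 0.35), with an unadjusted p of 0.0340 and an adjusted p of 0.161, and it was 0.43 without control replicate 1. Against the TBI rats, HSC + TBI differed by -0.77 (95% interval -1.57 to 0.03, adjusted p = 0.324), and HSC + TBI differed from controls by 0.11 (adjusted p = 0.898). Ier2 was the 1 gene of the 7 whose HSC + TBI rats were all below the TBI rats, an arrangement found in 8.74% of all tested probes.

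Ier3 (294235), a stress-induced regulator of cell survival, had the smallest TBI change of the 7 genes. Its log2 signals were 11.39, 12.30 and 11.67 in controls, 11.65, 11.99 and 11.58 after TBI, and 11.68, 11.38 and 11.56 after HSC + TBI, with all groups overlapping. The log2 fold change after TBI was -0.05 (95% interval -0.57 to 0.48, adjusted p = 0.917), and its sign turned with a scaling to the 75th percentile (0.011). After HSC + TBI it was -0.25 against controls (adjusted p = 0.602) and -0.20 against TBI (adjusted p = 0.703).

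**Figure D3:**
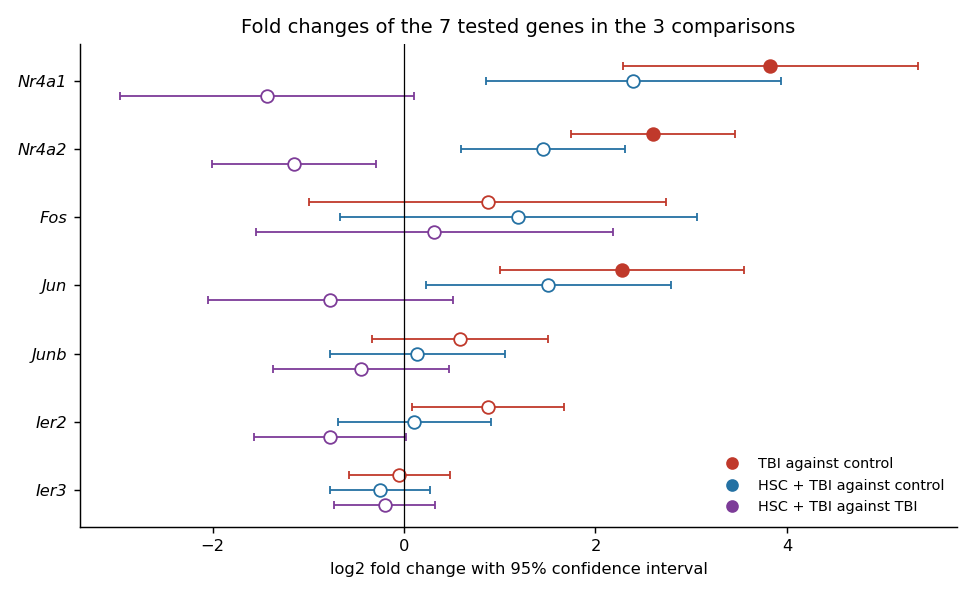
Log2 fold change (horizontal axis) of the 7 tested genes in the 3 comparisons, with 95% confidence intervals from the fit; filled points passed the adjusted threshold and the minimum fold, open points did not. The filled points are Nr4a1, Nr4a2 and Jun after TBI; the value of Nr4a1 in that comparison is a description.

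The 7 genes also varied together among rats of the same group. Control replicate 1 was the lowest control for 6 of the 7 genes, with Nr4a2 as the exception, and for 4 of them by at least 1 log2 unit, as it was for 1.16% of all tested probes. Control replicate 2 was the highest control for all 7, against 31.0% of all probes. TBI replicate 1 was the lowest TBI rat for Nr4a1, Nr4a2, Jun, Junb and Ier2, and for 26.7% of all probes. HSC + TBI replicate 2 was the lowest of its group for all 7 (38.4% of all probes), and HSC + TBI replicate 1 the highest for 5 (32.5%). The array of HSC + TBI replicate 2 was alone on its slide, while HSC + TBI replicates 1 and 3 shared another. For HSC + TBI replicate 2, rat and slide therefore cannot be told apart. Handling, time of day and feeding of single rats were not given in the sources used here.

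Of 12 further genes of the Fos, Jun, Atf, Maf and Egr families, the closest relatives of these transcription factors, 9 were tested. Their median log2 fold change after TBI was 0.79, against 0.01 over all tested genes. Limma called 0 of the 9 in any of the 3 comparisons, where it called 7.79% of all tested genes after TBI, 3.89% after HSC + TBI and 0.792% between the irradiated groups. With so few genes a count of 0 lies near those shares. The count after TBI was 1 under each of several alternatives, among them the scaling to the 75th percentile and the authors' values, and 4 with slide as a random block. After TBI, 3 of the 9 (Fosl2, Jund and Maff) had an unadjusted p under 0.05, as had 2 after HSC + TBI and 3 between the irradiated groups, beside 26.1%, 21.9% and 15.0% of all tested genes. The genes of the list with the smallest p were Jund and Batf3. Jund, the most steadily expressed Jun gene, was at 11.91, 12.22 and 12.32 in controls, 12.55, 12.87 and 12.69 after TBI, and 12.43, 12.44 and 12.19 after HSC + TBI. All its TBI rats lay above all controls, by 0.56 on average (adjusted p = 0.0572). A dimmer probe of Jund was called, with a rise of 1.2, so its 2 probes disagree on the call. Batf3, an AP-1 partner best known in dendritic cells, was at 5.85, 6.73 and 6.96 in controls and at 5.18, 5.10 and 5.01 after HSC + TBI (log2 fold change -1.42, adjusted p = 0.0838).

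Among immediate early genes outside those families, Btg2, Myc, Ppp1r15a, Sgk1, Gadd45b, Plk3 and Zfp36l1 rose after TBI. Of 32 such genes, 27 were tested, and 7 were called higher and 0 lower (25.9% higher), where 3.87% of all tested genes were called higher and 3.92% lower. This list was chosen with earlier results of these data known, so its counts are a description. After HSC + TBI 3 of the 27 were called higher against controls (11.1%, beside 1.18% of all tested genes). Between the irradiated groups limma called 0 of the 27, and 4 had an unadjusted p under 0.05 (14.8%, near the 15.0% of all tested genes). The 7 called after TBI became 4 without control replicate 1 or TBI replicate 2 and 3 without control replicate 3. The 3 called after HSC + TBI became 0 without control replicate 3 or HSC + TBI replicate 1, and 1 without HSC + TBI replicate 2. Between the irradiated groups 3 were called without TBI replicate 1. The list's median log2 fold change was 0.56 after TBI, 0.24 after HSC + TBI and -0.30 between the irradiated groups.

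Btg2, an antiproliferative gene induced by p53, rose most of the list. Its log2 signals were 8.97, 10.36 and 9.49 in controls, 12.11, 13.10 and 12.99 after TBI, and 12.42, 11.84 and 11.90 after HSC + TBI. It rose by 3.13 after TBI (SE 0.38, adjusted p = 0.00326) and by 2.44 after HSC + TBI (SE 0.38, adjusted p = 0.0130). The difference between the irradiated groups was -0.68 (adjusted p = 0.424). The rise after HSC + TBI was no longer called without control replicate 3 or HSC + TBI replicate 1.

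Myc, a growth-promoting transcription factor, rose by 1.77 after TBI (SE 0.42, adjusted p = 0.0383), but without any 1 of 7 rats it was not called. Ppp1r15a, the stress-induced phosphatase subunit known as GADD34, rose by 1.75 (SE 0.32, adjusted p = 0.0150) and lost the call without control replicate 3. Sgk1, a kinase induced by serum and glucocorticoids, rose by 1.56 (SE 0.27, adjusted p = 0.0130) and kept the call with each rat left out. Its log2 signals were 8.62, 8.76 and 8.66 in controls, 10.41, 9.71 and 10.62 after TBI, and 9.73, 8.85 and 9.40 after HSC + TBI. The other 3 called genes were Gadd45b, Plk3 and Zfp36l1, with log2 fold changes of 1.54, 1.10 and 0.78. After HSC + TBI the genes called were Btg2, Gadd45b (0.82, adjusted p = 0.0488) and the antiproliferative Tob1 (0.73, adjusted p = 0.0215). Plk3 had 2 tested probes, and after HSC + TBI the dimmer was called, at 1.15, while the brightest, at 0.80, was not.

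**Figure D4:**
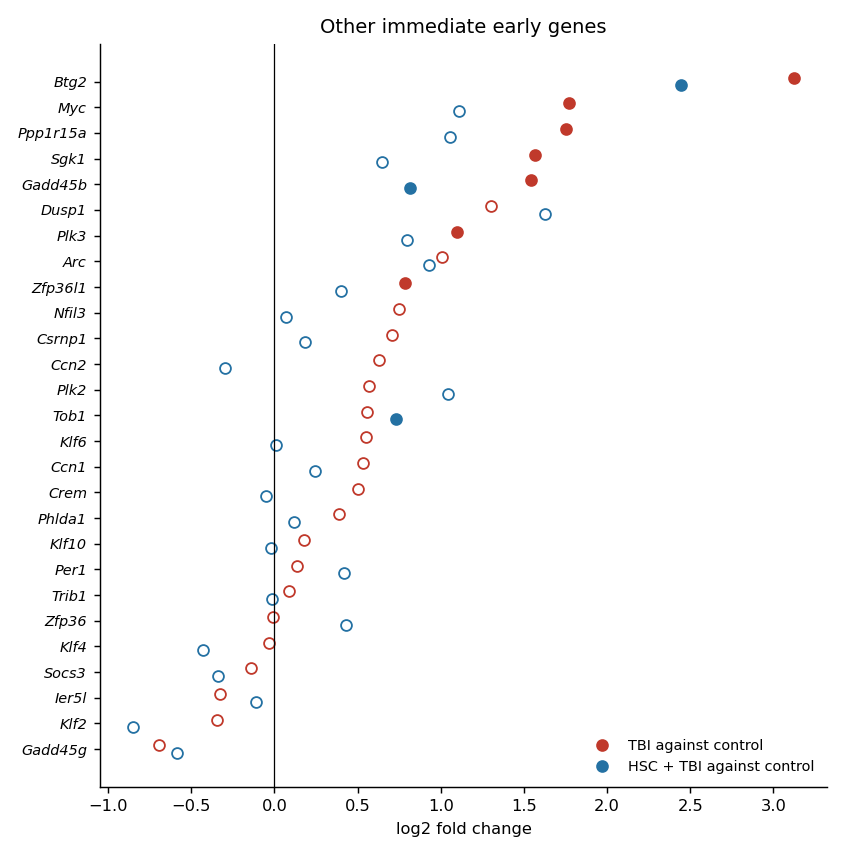
Log2 fold change against controls (horizontal axis) of the 27 tested immediate early genes outside the Fos, Jun, Egr and Nr4a families, after TBI and after HSC + TBI; filled points passed the threshold, open points did not. Called genes lie to the right in both comparisons, and Btg2 stands farthest out, at 3.13 and 2.44.

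Of 23 kinases and factors that switch immediate early promoters on, 18 were tested, and their median log2 fold change after TBI was 0.09. Limma called 0 of the 18 in any comparison, near the shares of all tested genes given above for a list of this size, and 1 after TBI without TBI replicate 3. An unadjusted p under 0.05 was found for 6 (33.3%) after TBI, 4 (22.2%) after HSC + TBI and 1 (5.56%) between the irradiated groups, beside 26.1%, 21.9% and 15.0% of all tested genes. Creb1, which binds the CRE, was higher after TBI by 0.41 (adjusted p = 0.0486), below the minimum fold, and Mef2d, which binds the Nr4a1 promoter in T cells, by 0.51 (adjusted p = 0.0684). Of 5 genes for EGR corepressors and NR4A partners, 4 were tested and 0 called by limma in any comparison, with 2 at an unadjusted p under 0.05 after TBI and 0 in the other comparisons. The closest were Rxrg and Rxrb, retinoid X receptors of the kind that pair with Nr4a1 and Nr4a2, at -0.31 each after TBI (adjusted p = 0.134 and 0.174).

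Genes of the cAMP and fasting response of liver moved both ways after TBI, with 2 higher and 2 lower of 10 tested, where 3.87% of all tested genes were called higher and 3.92% lower. This list, too, was chosen with earlier results of these data known. The 4 calls became 1 without control replicate 3 and 2 without control replicate 2, TBI replicate 2 or TBI replicate 3. Tat, tyrosine aminotransferase, rose by 1.53 (SE 0.33, adjusted p = 0.0287), and G6pc1, the enzyme that frees glucose for release, rose by 0.86 (SE 0.14, adjusted p = 0.0105). Gcgr, the glucagon receptor, fell by 0.74 (SE 0.14, adjusted p = 0.0177), and Eno3, a muscle-type enolase, fell by 0.63 (SE 0.14, adjusted p = 0.0314). Without one or another single rat the calls of Tat, Gcgr and Eno3 were lost, while G6pc1 kept its call with each rat left out. Limma called 0 of the 10 after HSC + TBI against controls and 0 against TBI, where it called 3.89% and 0.792% of all tested genes. With so few genes a count of 0 lies near those shares. An unadjusted p under 0.05 was found for 6 (60%) after TBI, 5 (50%) after HSC + TBI and 2 (20%) between the irradiated groups. The shares of all tested genes were 26.1%, 21.9% and 15.0%. The dimmer of the 2 probes of G6pc1 was called after HSC + TBI, at 0.74, while the brightest, at 0.48, was not.

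The profile nearest to that of Nr4a1 over the 9 arrays was that of Btg2. Likeness was the root mean square difference in log2 signal over the 9 rats, after the control mean of each gene was subtracted, among 9600 other genes. It is a description of the rats at hand, and it counts the TBI rise by which Nr4a1 was known. Btg2 differed from Nr4a1 by 0.58 log2 units. Next came Chac1, an enzyme that breaks down glutathione (0.61), the potassium channel gene Kcnj16 (0.84), Igfbp1, a secreted binding protein of insulin-like growth factors (0.86), and Noct, nocturnin (0.88). Kcnj16 was not above background in any control, so its distance is uncertain. Nr4a2 was at rank 6 and Jun at rank 10, whereas Fos was at 291, Ier2 at 558, Junb at 918 and Ier3 at 5689. The controls entered this likeness too, so likeness among them was part of how these genes were picked. Igfbp1 stood there at 10.65, 12.46 and 10.89, with control replicate 2 the highest, as it was for Nr4a1, Btg2 and Chac1.

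The profiles nearest to Fos were those of Dapl1 (0.50), Soat1 (0.59), Ddias (0.62), Nuak1 (0.62) and Dusp1 (0.64). What they shared with Fos was a low value in control replicate 1. Dapl1, Ddias and Nuak1 were not above background in any control, and Soat1 was in 1 of 3. Dusp1, a phosphatase that switches off MAP kinases, was above background on all 9 arrays. It stood at 6.49, 9.39 and 8.29 in controls, at 9.72, 8.88 and 9.46 after TBI, and at 10.11, 9.10 and 9.84 after HSC + TBI. It was not called in any comparison. Junb ranked 27 and Ier2 ranked 36 by likeness to Fos, while Nr4a1 ranked 9335. The distance between Fos and Nr4a1, 2.06 log2 units, was the same from either side, although Fos ranked 291 by likeness to Nr4a1. This distance counts the size of a change, so the large TBI rise of Nr4a1 enters it.

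**Figure D5:**
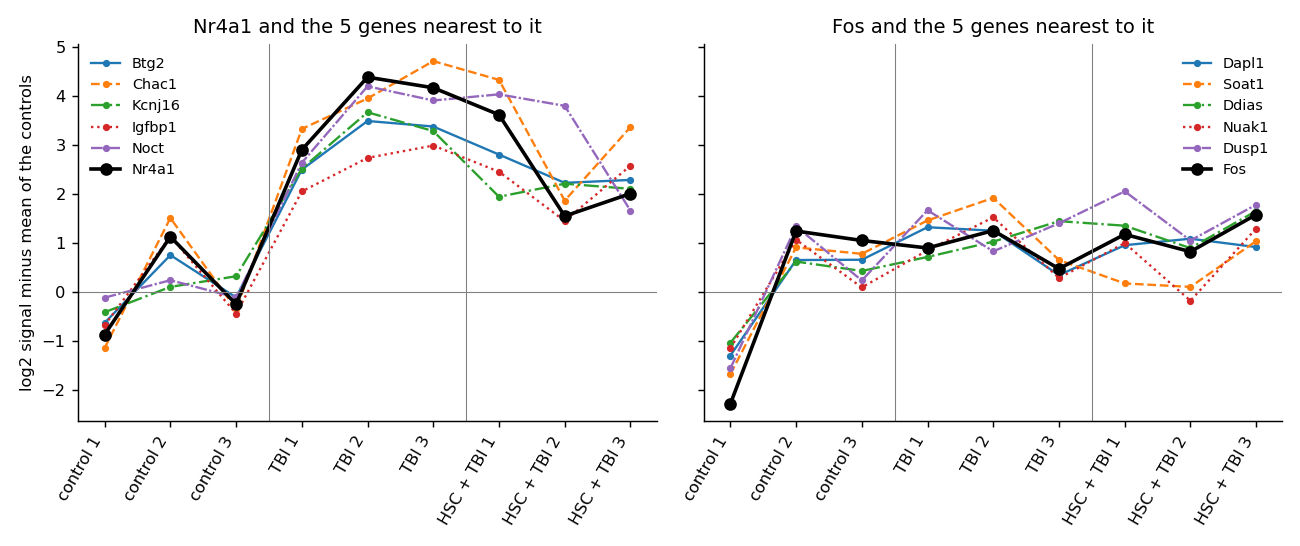
Log2 signal minus the mean of the controls (vertical axis) in each of the 9 rats for Nr4a1 (left, black) and Fos (right, black) with the 5 nearest genes each; lines only join the points of a gene, since the rats of a group have no order. The left genes rise in all irradiated rats, while the right genes share a low control 1.

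The labelled tissue was checked by its markers, with 7 of 7 hepatocyte markers above background on all arrays. Their summed signal, on the log2 scale, was 20.0 to 20.1 in controls, 19.9 to 20.1 after TBI and 20.0 to 20.1 after HSC + TBI, and 0 were called by limma in the 3 comparisons. The sums add signals before the log, so the brightest marker of a list weighs most. Of the Kupffer and macrophage markers, 7 of 7 were above background on all arrays and 0 were called. Their sum was 15.5 to 16.0 in controls, 15.5 to 16.4 after TBI and 15.0 to 15.1 after HSC + TBI, so that the HSC + TBI rats were the 3 lowest. It was set mostly by Clec4f, with a control mean of 15.5, the next being Cd68 at 12.9. Between HSC + TBI and TBI, 6 of the 7 Kupffer and macrophage markers had an unadjusted p under 0.05 (85.7%, beside 15.0% of all tested genes). The median log2 fold change of the 7 markers was -1.10, beside -0.77 for the 7 immediate early genes. Neutrophil markers (4 tested of 6) summed to 10.5 to 11.1 in controls, 9.84 to 11.5 after TBI, lowest in TBI replicate 1, and 9.31 to 9.97 after HSC + TBI. The brightest of those tested was Fcgr3a, with a control mean of 10.4, the next being S100a9 at 8.09 and S100a8 at 7.23. Fcgr3a therefore weighed most among those tested in this sum. Between the irradiated groups 3 of the 4 tested neutrophil markers had an unadjusted p under 0.05 (75%, beside 15.0% of all tested genes), with a median of -0.98. Lymphocyte markers (4 tested of 7) summed to 8.93 to 9.28, 7.69 to 8.64 and 7.99 to 8.45 in the same order, with Cd3e not above background on any array. Of these markers 2 were called lower after TBI, 1 lower after HSC + TBI and 1 higher in HSC + TBI than in TBI. The calls were of Cd2 and Cd79b, at TBI means of 1.38 and 2.24. The lowest signals above background on the TBI arrays were 2.51 to 3.13. Cd79b was at 1.90 after HSC + TBI, where those lowest signals were 3.56 to 3.66. The sizes of these differences are therefore uncertain. Endothelial markers (4 tested of 6) summed to 13.6 to 13.9, 14.0 to 14.3 and 13.9 to 14.1. The sums of the stellate cell markers (6 tested of 6) and cholangiocyte markers (2 tested of 4) overlapped among the groups, with 1 stellate marker called lower after TBI. In whole liver, fewer cells of a type and less RNA per cell cannot be told apart, and the part of these cell types in the changes of the immediate early genes was not tested.

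Between 56.6% and 59.3% of probes were above background in controls, 63.6% to 69.5% after TBI and 58.7% to 60.4% after HSC + TBI, and no spot was saturated. The controls were on 1 slide, the TBI rats on another and the HSC + TBI rats on 2 more, so slide and treatment cannot be told apart. Precision is limited by having 3 arrays a group, and an exact two-sided permutation test of a single gene cannot go below 0.1.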

How the data were processed

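The authors hybridised Cy3-labelled liver RNA of each rat to a one-colour Agilent rat oligonucleotide array and read it with Feature Extraction (version 10.7.3.1 per the file headers, 10.7 in the submitters' processing notes). The deposited scanner files hold spot intensity (raw, background and processed signal) and quality flags, with build rn4 in the header. The authors also deposited log2 values per probe, normalized by quantiles, which served here as an alternative.

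Here processed signals below 1 were raised to 1 and log2-transformed, outlier-flagged spots were dropped (84 to 115 of 43379 per array), the 9 arrays were quantile-normalized in limma 3.58.1 (R 4.3.3), and spots of a probe were averaged. A probe was above background on an array where over 0.5 of its spots were flagged well above it. A probe was tested if 1 group or more had it above background in all 3 rats (25367 of 41012), with lmFit and eBayes applied once to all 3 groups. Probes were named by RefSeq accession (GRCr8 tables, 16968 probes matched to 1 gene), and a gene was read by its brightest probe. Nothing in the labels pairs rats, and p-values measure the spread between the rats arrayed, a part of each treatment group.

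The genes and the gene lists were chosen with earlier results of these data known. From each pathway list the text names up to 4 called genes with the largest change in any comparison, or, where fewer than 2 were called, the 2 with the smallest p, and for likeness the 5 nearest genes; Gadd45b, Plk3, Zfp36l1, Tob1, Fosl2 and Maff were named after their values were seen. The code was tested on simulated data. The alternatives tried were other scaling, background correction, the authors' values, other filters, the 2 compared groups alone, the methods' t-test, blocks for slide and replicate number, and each rat left out.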

Additional observations from a re-analysis of the deposited data

How the results depend on the processing

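Over the 7 tested genes and 3 comparisons, 433 of 462 recomputed log2 fold changes kept their direction and their side of the threshold, 14 lost a call, 8 gained one and 7 turned sign. Much of that agreement was fixed in advance. Only Nr4a1, Nr4a2 and Jun after TBI had a call to lose, and some settings could not move a fold change, such as leaving out a rat of the group not compared. Most of the 14 losses were of Jun, in 4 of the other settings and without any 1 of 7 rats. The 3 genes called after TBI became 0 by the methods' t-test after Benjamini-Hochberg adjustment (3 unadjusted) and 5 with slide as a random block, which added Junb and Ier2. With that block 3 genes (Nr4a1, Nr4a2 and Jun) were called after HSC + TBI against controls and 1 (Nr4a2) between the irradiated groups, against 0 each. The estimated correlation within slides was -0.33, which narrows the errors. The unadjusted methods' t-test called 1 gene in each of those comparisons, Nr4a2 and Ier2. With each rat left out, the count ranged from 1 to 3 after TBI and was 0 in the other comparisons. The values that turned sign were all uncalled. Fos after TBI was -0.27 without control replicate 1 and up to 1.495 without another rat. Ier3 after TBI was 0.011 with the 75th percentile shift, 0.21 without control replicate 2 and 0.034 without TBI replicate 3, down to -0.25. After HSC + TBI, Junb was -0.38 and Ier2 -0.34 without control replicate 1 (up to 0.43 and 0.38 otherwise), and Ier3 was 0.0057 without control replicate 2 (down to -0.45). Replicate numbers are shared between groups, but they name different rats, and the correlations of same-numbered rats ran from -0.14 to 0.19. With replicate number as a block, 2 genes were called after TBI (Jun was lost) and 0 in the other comparisons. Without the filter on dim probes, or with the 2 compared groups alone, 2 were called after TBI. The mean over a gene's probes equals its 1 probe here. For the list of other immediate early genes, examined under the same alternatives after the data were seen, the count after TBI ranged from 3 to 9 with each rat left out and from 0 to 12 otherwise, and the count after HSC + TBI, 3 in the analysis as reported, from 0 to 4 and from 0 to 11. The causes were not tested. Precision was limited by 3 rats a group, and for Nr4a3 by signal over background.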
